A study of Trachinotus blochii with 22 samples.

Results

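The miRNAs miR-142, miR-223, miR-155 and miR-150, known chiefly from white blood cells, were followed in livers of the farmed sea fish golden pompano, Trachinotus blochii. All rows of the miRNA table with one of these names were taken, whatever the species prefix, letter, copy number or arm, which gave 37 of 2108 rows. Rows with the same value in every library count once, so that 24 distinct rows of 1400 remained. Of these, 10 belong to miR-142, 8 to miR-223, 3 to miR-155 and 3 to miR-150.

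The study compared liver miRNAs of fish under oxygen shortage (hypoxia), after rapid or gradual return of oxygen (reoxygenation), and in normal oxygen (normoxia). Small RNA of 22 liver libraries was sequenced as single reads of 50 bases. Samples of gradual reoxygenation and of rapid reoxygenation were taken at 3 h and at 12 h, those of hypoxia and normoxia at 0 h and at 12 h. Rapid reoxygenation at 12 h and normoxia at 0 h had 2 libraries each and the other groups 3 each. Both reoxygenation treatments came after hypoxia. The labels give no oxygen level, no age and no moment from which the hours are counted, and nothing in them says that different libraries are different fish, so the spread behind the p-values below is that between these libraries and may be technical.

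A miRNA is cut from a hairpin RNA as a short strand from its 5′ arm (5p) or its 3′ arm (3p), and the strand kept by the silencing complex lowers the output of the mRNAs it pairs with. miR-142 is made in nearly all blood cell lineages of mammals and zebrafish, and both of its arms are used. miR-223 marks granulocytes and other myeloid cells in mammals and neutrophils in zebrafish, where it restrains inflammation. In mammals, miR-155 is induced when macrophages, B cells and T cells are activated, and miR-150 is a miRNA of mature lymphocytes that represses the transcription factor Myb. A liver holds resident macrophages and circulating blood cells beside its hepatocytes, and fish red cells keep a nucleus.

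The libraries were 17.5 to 33.8 M (mega) reads deep, summed over all rows of the table, identical rows included. Values are CPM, the reads of a row per M reads of its library, and 1 read was worth 0.0296 to 0.0572 CPM. Library 2 of normoxia 0 h stood apart, with a root mean square distance of 1.34 on the log2 scale from the median library, against 0.345 to 0.868 for the other 21 libraries. The columns were matched to groups by the times in their names and by the number of libraries, the letters in those names are not explained, and the normoxia 0 h columns, numbered 2 and 3, carry no time, so every value of normoxia 0 h rests on that placement. The authors' deposited means of rapid reoxygenation 12 h and normoxia 0 h take in a further library not analysed here, so where those groups are said not to overlap another, this covers only their 2 analysed libraries. The hepatocyte miRNAs miR-122, miR-192 and miR-194 were present in every library, with a summed level of 84922 CPM or more. In such whole-tissue libraries, fewer cells of a type and less of a miRNA per cell cannot be told apart.

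Of the 24 distinct member rows, 15 reached 1 CPM in at least 2 libraries and were among the 602 rows tested. The other 9 were ccr-miR-142-5p, dre-miR-150, mmu-miR-155-5p, cin-miR-155, oan-miR-223-3p, gmo-miR-223b-3p, gmo-miR-223a-5p, oha-miR-223-5p and cli-miR-223-5p, and none of them passed 0.968 CPM, or 30 reads, in any library. Several tested rows are near copies that share reads and are not separate measurements. The row oni-miR-142b, whose name gives no arm, held 98.3 to 100% of the value of pbv-miR-142-5p in each library. The rows gga-miR-142-5p, xtr-miR-142-5p and cfa-miR-142 stood at 14.2 CPM on average, and gga-miR-142-5p held 38.5 to 70.6% of pbv-miR-142-5p. For the 3p arm, cgr-miR-142-3p and tgu-miR-142-3p held 98.6% or more of aca-miR-142-3p, and bta-miR-142-3p held 32 to 60.4% of it. Near copies also stood beside the leading rows of miR-223-5p and miR-150, where hsa-miR-223-5p held 94.7 to 100% of mdo-miR-223-5p and ola-miR-150 held 99.2 to 100% of mze-miR-150.

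Each miRNA and arm is given here by its most abundant row. These 6 leading rows were pbv-miR-142-5p (miR-142-5p), aca-miR-142-3p (miR-142-3p), hsa-miR-223-3p (miR-223-3p), mdo-miR-223-5p (miR-223-5p), gga-miR-155 (miR-155-5p) and mze-miR-150 (miR-150, arm not named). The lymphocyte miRNA miR-150 had the highest mean level over the 22 libraries, 41.7 CPM, which placed it 222nd of the 602 tested rows. miR-142-5p followed at 27.98 CPM, miR-142-3p at 9.44 CPM, miR-223-3p at 8.14 CPM, miR-155-5p at 6.37 CPM and miR-223-5p at 2.30 CPM. The depth behind these levels was 707 to 1683 reads per library for miR-150, 128 to 1423 for miR-142-5p, 78 to 698 for miR-142-3p, 69 to 496 for miR-223-3p, 52 to 768 for miR-155-5p and 19 to 123 for miR-223-5p. These are levels per read in the table, not corrected for how well each sequence is captured.

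The members differed in how much they varied between libraries. miR-155-5p had the widest range, with its highest library 18.8 times its lowest, followed by miR-142-3p at 8.40 times and miR-142-5p at 8.33 times. miR-150 spanned the narrowest range of the 6, with a highest library 2.51 times its lowest. Its standard deviation on the log2(CPM + 1) scale was 0.36, and that of miR-155-5p 0.78, beside a median of 0.42 over all tested rows. The share of variance that lay between the 8 groups was 60.3% for miR-142-5p, 59.1% for miR-155-5p, 50.8% for miR-223-3p, 40.6% for miR-142-3p, 36.7% for miR-150 and 27.9% for miR-223-5p, against a median of 40.0% over all tested rows.

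**Figure D1:**
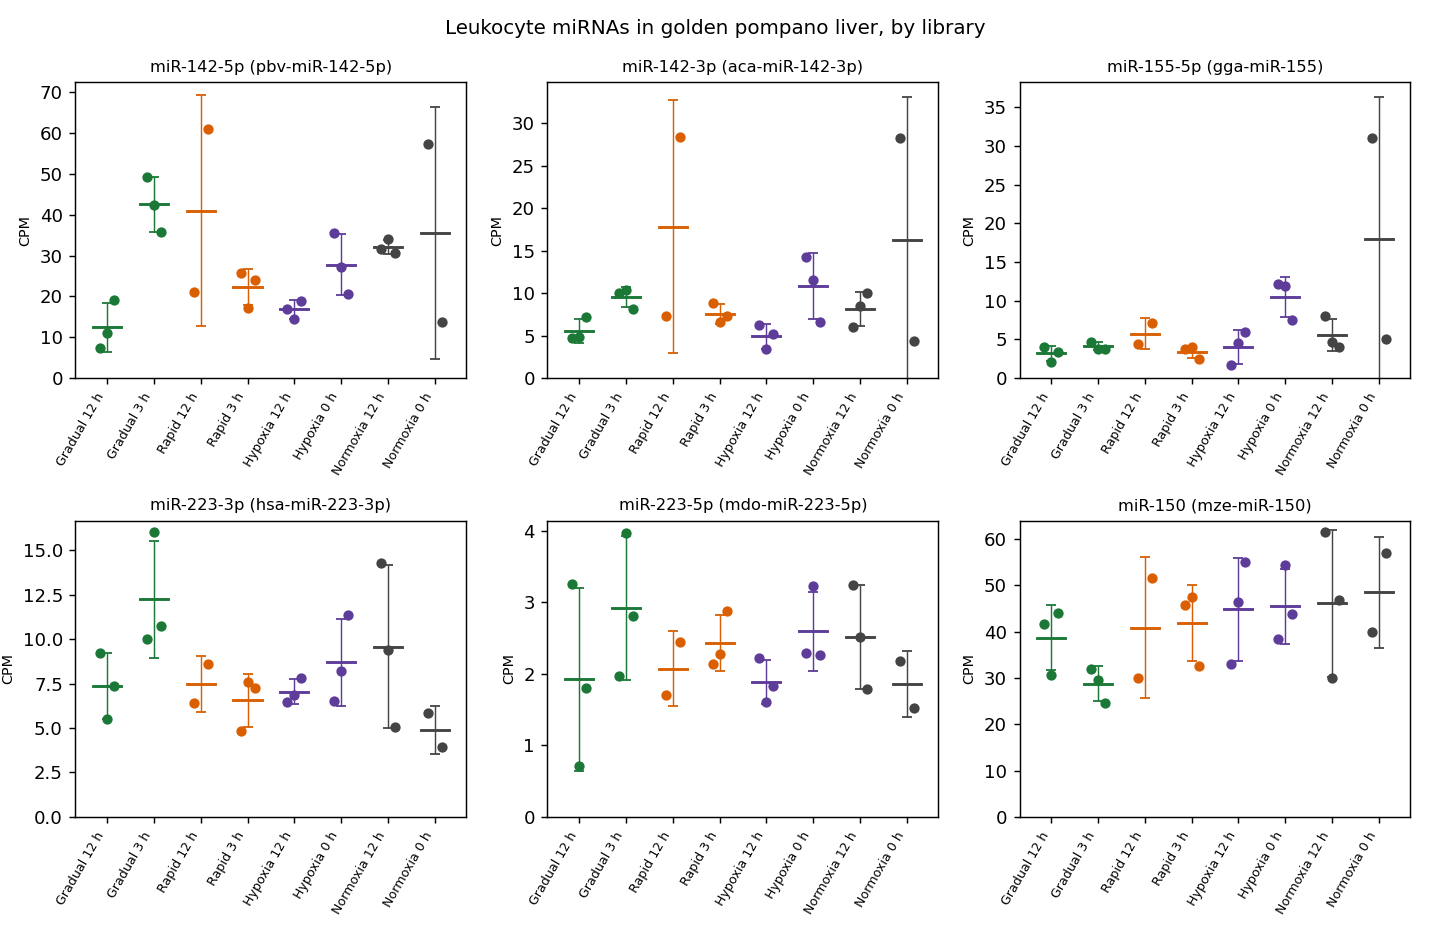
CPM of the 6 leading rows in every library (points), with the mean (thick line) and SD (bars) of each of the 8 groups; the vertical axes start at 0. Gradual reoxygenation 3 h is the highest group for miR-142-5p and the lowest for miR-150, and 1 library each of rapid reoxygenation 12 h and normoxia 0 h lies far above its partner for both arms of miR-142, as 1 library of normoxia 0 h does for miR-155-5p.

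The 1 leading row that passed a limma test did so between the hours of gradual reoxygenation. miR-142-5p stood at 7.32, 11.01 and 19.1 CPM in the 3 libraries of gradual reoxygenation 12 h, against 49.3, 42.5 and 35.8 CPM in those of gradual reoxygenation 3 h. All libraries at 12 h lay below all libraries at 3 h, and the group means were 12.5 ± 5.998 and 42.6 ± 6.76 CPM (SD, n = 3 each). On the scale of log2(CPM + 1), which understates changes of low rows, the difference was −1.78 ± 0.44 (SE), with an adjusted p of 0.0482 in limma after Benjamini-Hochberg adjustment over the 602 tested rows. miR-142-5p was therefore called as lower at 12 h in limma at a threshold of 0.05, and it was the only one of the 6 leading rows called, where 1.83% of all tested rows were called in that comparison (11 of 602). Its near copy oni-miR-142b was called with it, while gga-miR-142-5p reached an adjusted p of 0.0590 in limma. The call stood close to the threshold: for pbv-miR-142-5p edgeR on the recovered reads gave an adjusted p of 0.0805 and DESeq2 gave 0.0162 (8.8% of all tested rows called), and it held in limma without library 3 of gradual reoxygenation 12 h (adjusted p = 0.0295) but was lost without any one of the other 5 libraries of the 2 groups (adjusted p = 0.0783 to 0.215). The limma call was also lost when the libraries were rescaled by TMM factors or by quantile normalization.

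The 3p arm of the same hairpin was not called there. miR-142-3p stood at 4.75, 4.79 and 7.19 CPM in gradual reoxygenation 12 h, against 10.04, 10.3 and 8.14 CPM in gradual reoxygenation 3 h. The groups did not overlap, but the log2 difference of −0.69 ± 0.50 did not pass (limma adjusted p = 0.479). The myeloid miRNA miR-223-3p had 9.21, 5.51 and 7.37 CPM in gradual reoxygenation 12 h, against 9.995, 16.0 and 10.7 CPM in gradual reoxygenation 3 h, again with no overlap, and its log2 difference of −0.66 ± 0.32 did not pass either (limma adjusted p = 0.313). In all, 3 of the 6 leading rows had groups that did not overlap, beside 29.6% of all tested rows. The lymphocyte miRNA miR-150 had a difference of the opposite sign, 0.41 ± 0.30, with overlapping groups. The median log2 difference of all tested rows was itself −0.12 in that comparison (0.03 with TMM factors), and for gradual reoxygenation 12 h it was −0.11 against hypoxia 12 h and −0.12 against normoxia 12 h.

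Red-cell miRNAs were lower in the same libraries. The summed level of miR-144 and miR-451, made in red cells of mammals and zebrafish, and of miR-2188, counted with them here, was 902.6 to 4668 CPM in gradual reoxygenation 12 h and 9756 to 13151 CPM in gradual reoxygenation 3 h. All 3 were lower at 12 h and none was at 0; the most abundant rows gave a log2 difference of −2.22 for miR-451 (limma adjusted p = 0.0406), −1.38 for miR-144 (0.0590) and −1.86 for miR-2188 (0.0516). The other rows called as lower beside miR-142 were 2 of miR-144-3p, 2 of miR-451-5p, 3 of miR-221 and the predicted novel_431, and the 1 called as higher was dre-miR-153b-3p. Pancreatic acinar miRNAs (miR-216a, miR-216b and miR-217) summed to 1345 to 4338 CPM in gradual reoxygenation 12 h and 38.4 to 1388 CPM in gradual reoxygenation 3 h, and 5 epithelial miRNAs of the miR-200 family to 2661 to 3795 CPM in gradual reoxygenation 12 h and 1493 to 2083 CPM in gradual reoxygenation 3 h. None of these 8 miRNAs passed the test. The hepatocyte miRNAs were all lower without a call, with log2 differences of −0.01 for miR-122, −0.41 for miR-192 and −0.39 for miR-194. The groups did not overlap for miR-192, at 12310 to 15920 CPM in gradual reoxygenation 12 h and 16640 to 20160 CPM in gradual reoxygenation 3 h. The part of these cell-type miRNAs in the result for miR-142-5p was not tested.

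**Figure D2:**
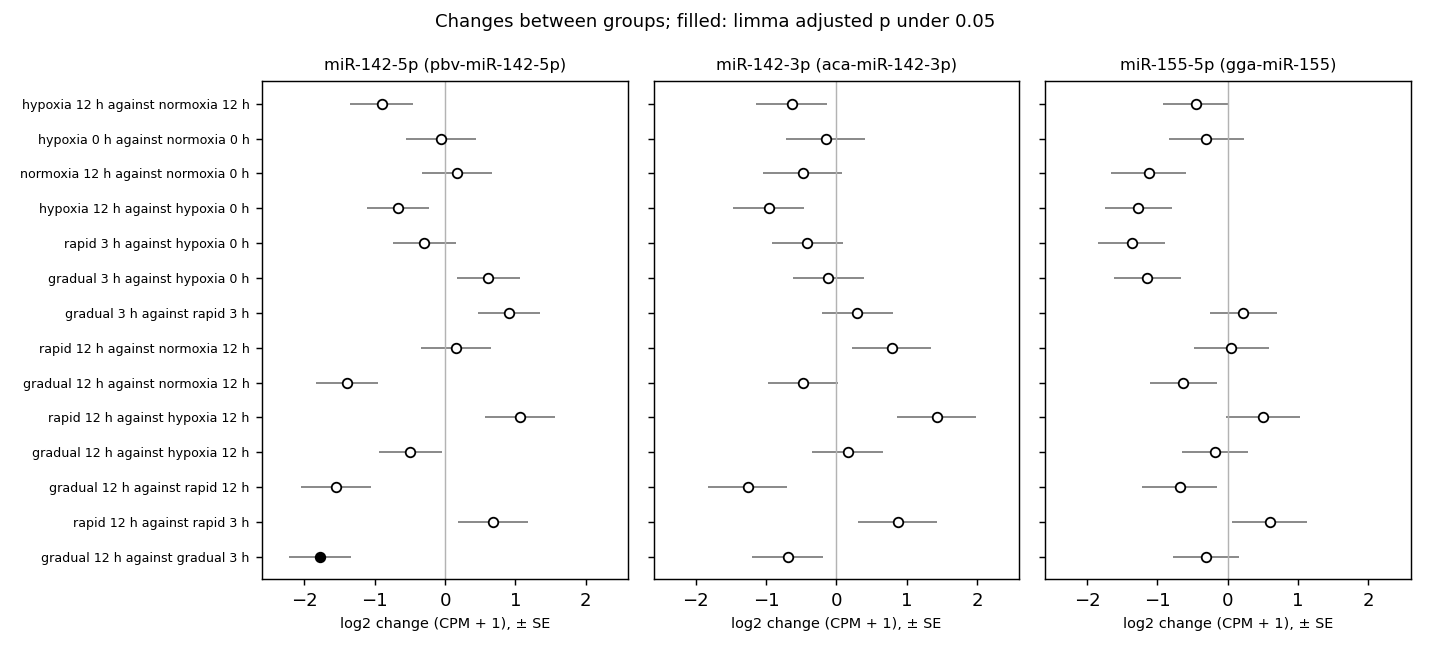
Log2 change with its SE in the 14 comparisons of groups for miR-142-5p, miR-142-3p and miR-155-5p; a filled point marks a limma adjusted p under 0.05. The single filled point is miR-142-5p in gradual reoxygenation 12 h against gradual reoxygenation 3 h, at −1.78.

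The design sets the rate of reoxygenation at 3 h beside the rate at 12 h, and miR-142-5p lay on opposite sides at these hours. At 3 h it had 49.3, 42.5 and 35.8 CPM under gradual reoxygenation, against 25.7, 17.3 and 23.9 CPM under rapid reoxygenation. All gradual libraries were higher, by 0.91 ± 0.44 on the log2 scale, which did not pass (limma adjusted p = 0.507). The red-cell sum at 3 h was 9756 to 13151 CPM under gradual reoxygenation and 3039 to 4858 CPM under rapid reoxygenation, and its part in the values of miR-142-5p was not tested. In the same libraries the sum of the 5 epithelial miRNAs was 1493 to 2083 CPM under gradual reoxygenation and 2998 to 3877 CPM under rapid reoxygenation, and that of the 3 acinar miRNAs was 38.4 to 1388 CPM under gradual reoxygenation and 2550 to 3513 CPM under rapid reoxygenation. None of these 11 marker miRNAs was called, and their part in the values of the members was not tested. At 12 h miR-142-5p had 7.32, 11.01 and 19.1 CPM under gradual reoxygenation, against 21.1 and 61.0 CPM in the 2 analysed libraries of rapid reoxygenation. Here all gradual libraries were lower, by a log2 difference of −1.55 ± 0.50 that did not pass (limma adjusted p = 0.402). The red-cell sum at 12 h was 902.6 to 4668 CPM under gradual reoxygenation and 2056 to 2973 CPM under rapid reoxygenation. All 3 red-cell, 3 acinar and 5 epithelial miRNAs were higher under gradual reoxygenation at 12 h, with none called. Of the 3 hepatocyte miRNAs, 1 was higher and 2 lower. The part of these cell-type miRNAs in the values of miR-142-5p was not tested. The mean of miR-142-5p in rapid reoxygenation 12 h was 41.0 CPM over the 2 analysed libraries and 29.2 CPM in the authors' deposited table. If the deposited value is a plain mean, the further library lies below every library of gradual reoxygenation 12 h. Among the 6 leading rows, 3 did not overlap between the rates at 3 h, beside 19.6% of all tested rows, and 3 at 12 h, beside 20.8%. At 12 h these were miR-142-5p and, by narrow margins, miR-142-3p and miR-155-5p. miR-142-3p reached 7.19 CPM under gradual reoxygenation, against 7.27 CPM or more under rapid reoxygenation. For miR-155-5p these values were 4.06 and 4.38 CPM. If their deposited means of 12.6 and 4.37 CPM are plain means, the further library lies below every library of gradual reoxygenation 12 h in both.

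The difference between the 12 h against 3 h change under gradual reoxygenation and that under rapid reoxygenation was tested directly. For miR-142-5p it was −2.46 ± 0.67 on the log2 scale, with an adjusted p of 0.133 in limma, 0.113 in edgeR and 0.0238 in DESeq2 (5.15% of all tested rows called). No leading row passed in limma, where 0.166% of all tested rows did. The 2 libraries of rapid reoxygenation 12 h lay far apart, and leaving out either leaves the group with 1 library, which is then assumed to vary like the other groups. Without library 1, which leaves the library of 61.0 CPM, the difference for pbv-miR-142-5p was −3.21 (limma adjusted p = 0.0285, with 6 of 602 rows called), and without library 2 it was −1.72 (limma adjusted p = 0.250). For miR-142-3p the same difference was −1.56 ± 0.76, for miR-155-5p −0.91 ± 0.71, for miR-223-3p −0.84 ± 0.48 and for miR-150 0.48 ± 0.45, and none of them passed.

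Hypoxia and normoxia gave no call for a leading row. At 12 h, miR-142-5p had 17.0, 14.5 and 19.0 CPM under hypoxia, against 31.5, 34.1 and 30.7 CPM under normoxia. The 6 libraries did not overlap, yet the log2 difference of −0.90 ± 0.44 was far from passing over all rows (limma adjusted p = 0.997). It was the only leading row of the 6 whose groups did not overlap there, beside 12.8% of all tested rows, and 0.664% of all tested rows were called. The other 5 had log2 differences of −0.64 for miR-142-3p, −0.45 for miR-155-5p, −0.30 for miR-223-3p, −0.27 for miR-223-5p and −0.01 for miR-150. The red-cell sum was lower in the same libraries, 2641 to 4238 CPM in hypoxia 12 h and 7452 to 14456 CPM in normoxia 12 h, with 1 of the 3 red-cell miRNAs called. All 3 acinar, 5 epithelial and 4 stromal and smooth muscle miRNAs were higher in hypoxia 12 h, with none called. Of the 3 hepatocyte miRNAs, 2 were higher and 1 lower. The part of these cell-type miRNAs in the values of miR-142-5p was not tested.

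At 0 h, miR-142-5p had 35.5, 27.3 and 20.7 CPM under hypoxia, against 57.5 and 13.8 CPM in libraries 2 and 3 of normoxia. The normoxia libraries enclosed all hypoxia libraries, and the log2 difference was −0.06 ± 0.50. miR-155-5p had 12.1, 11.9 and 7.49 CPM under hypoxia, against 31.0 and 5.04 CPM in normoxia, and the difference of −0.30 ± 0.53 did not pass (limma adjusted p = 0.945). Library 2 of normoxia 0 h, the library that stood apart, was the high one both times. Without library 3 of normoxia 0 h, which leaves library 2 alone and assumes that it varies like the other groups, the row gga-miR-155 (miR-155-5p) was lower under hypoxia by a log2 difference of −1.51 (limma adjusted p = 0.0335, with 119 of 602 rows called), and without library 2 it was higher by 0.90 (limma adjusted p = 0.398). The groups did not overlap for 2 leading rows, both arms of miR-223, beside 16.1% of all tested rows. miR-223-3p had 6.54, 8.19 and 11.4 CPM under hypoxia 0 h, against 5.82 and 3.91 CPM under normoxia 0 h, a log2 difference of 0.72 ± 0.36 that did not pass (limma adjusted p = 0.620). The mean of miR-223-3p in normoxia 0 h was 4.86 CPM over the 2 analysed libraries and 8.36 CPM in the authors' deposited table, beside 8.70 CPM in hypoxia 0 h. If the deposited means are plain means, neither arm of miR-223 stays apart once the further library is counted. All 3 red-cell miRNAs were higher in hypoxia 0 h, 1 of them called, and all 3 acinar and 5 epithelial ones lower, none called. Of the 3 hepatocyte miRNAs, 1 was higher and 2 lower. Their part in the values of the members was not tested. Between these hours, the hypoxia effect did not differ past the threshold for any leading row, and the difference was −0.84 ± 0.67 for miR-142-5p and −1.02 ± 0.48 for miR-223-3p (limma adjusted p = 0.894 and 0.552), while 0.997% of all tested rows passed.

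Between the normoxia groups, miR-155-5p (gga-miR-155) had 8.00, 4.70 and 4.07 CPM at 12 h, against 31.0 and 5.04 CPM at 0 h. The log2 difference of −1.12 ± 0.53 did not pass in limma (adjusted p = 0.227) and passed in DESeq2 (adjusted p = 0.0230; 16.1% of all tested rows called). No leading row passed in limma, where 4.82% of all tested rows did. Without library 3 of normoxia 0 h, miR-155-5p (−2.33, limma adjusted p = 0.00129) and miR-142-3p (aca-miR-142-3p; −1.70, limma adjusted p = 0.0243) were both lower at 12 h, with 193 of 602 rows called, so those calls rest on library 2 alone, and without library 2 the log2 differences were 0.08 for gga-miR-155 and 0.73 for aca-miR-142-3p. None of the 6 leading rows had groups that did not overlap, beside 26.1% of all tested rows. Markers of other cell types differed widely between these groups: all 3 red-cell miRNAs were called as higher at 12 h, with a median log2 difference of 2.99 and sums of 7452 to 14456 CPM at 12 h and 858.3 to 2434 CPM at 0 h. Of the 3 hepatocyte miRNAs 2 were called, of the 4 stromal ones 1, and of the 5 epithelial ones, all lower at 12 h, 2, and their part in the values of miR-155-5p was not tested.

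miR-155-5p, the activation-induced member, had its highest group mean after that of normoxia 0 h in hypoxia 0 h. It had 12.1, 11.9 and 7.49 CPM in hypoxia 0 h. In hypoxia 12 h it had 1.65, 4.52 and 5.93 CPM, all below every hypoxia 0 h library, with a log2 difference of −1.27 ± 0.47 (limma adjusted p = 0.772). Rapid reoxygenation 3 h had 3.78, 3.96 and 2.53 CPM, also wholly below hypoxia 0 h, with −1.37 ± 0.47 (limma adjusted p = 0.999). Gradual reoxygenation 3 h had 4.72, 3.81 and 3.82 CPM, again wholly below, with −1.14 ± 0.47 (limma adjusted p = 0.307). None of the 3 passed, and all 3 share the same hypoxia 0 h libraries. The stromal and smooth muscle sum in hypoxia 0 h, 24923 to 36708 CPM, also lay wholly above these other 3 groups. So did the striated muscle sum of miR-1, miR-133 and miR-206, at 16.4 to 36.3 CPM. The red-cell, hepatocyte, acinar and epithelial sums did not lie above all 3. In each comparison 3 stromal miRNAs were lower and 1 higher, and all 3 striated muscle ones were lower, with none called. Their part in the values of miR-155-5p was not tested. By group mean the order for miR-155-5p was normoxia 0 h, hypoxia 0 h, rapid reoxygenation 12 h, normoxia 12 h, gradual reoxygenation 3 h, hypoxia 12 h, rapid reoxygenation 3 h and gradual reoxygenation 12 h, and hypoxia 0 h against rapid reoxygenation 12 h was the only pair of neighbours whose ranges did not overlap.

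Set against hypoxia 0 h, the other members lay on different sides in different groups. In hypoxia 12 h, 4 of the 6 leading rows lay wholly below hypoxia 0 h (both arms of miR-142, miR-155-5p and miR-223-5p), beside 23.1% of all tested rows not overlapping. In rapid reoxygenation 3 h, 1 of the 6 did, miR-155-5p, beside 13.1%. In gradual reoxygenation 3 h, 3 of the 6 did not overlap, beside 31.6%: miR-142-5p was higher (0.62 ± 0.44, limma adjusted p = 0.566), and miR-155-5p and miR-150 were lower. The red-cell sum was 9756 to 13151 CPM in gradual reoxygenation 3 h and 2784 to 5021 CPM in hypoxia 0 h. All 3 acinar and 5 epithelial miRNAs were lower in gradual reoxygenation 3 h than in hypoxia 0 h, and of the 3 hepatocyte miRNAs 2 were higher and 1 lower. The part of these cell-type miRNAs in the values of the members was not tested. No leading row was called in any of these comparisons, in which limma called 0 of 602 rows; at an unadjusted p under 0.05, limma gave 33, 16 and 89 of the 602 rows in these comparisons, edgeR called 0 in each, and DESeq2 called 1, 7 and 21.

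At 12 h, gradual reoxygenation lay below normoxia and rapid reoxygenation above hypoxia for miR-142-5p, neither with a call. Gradual reoxygenation 12 h, at 7.32, 11.01 and 19.1 CPM of miR-142-5p, lay wholly below the 31.5, 34.1 and 30.7 CPM of normoxia 12 h, with a log2 difference of −1.39 ± 0.44 (limma adjusted p = 0.187, with 1.66% of all tested rows called). miR-155-5p did not overlap there either, with −0.63 ± 0.47, so that 2 of the 6 leading rows did not overlap, beside 21.3% of all tested rows. For miR-155-5p the gap was less than 1 read, with at most 4.061 CPM in gradual reoxygenation 12 h and at least 4.072 CPM in normoxia 12 h. All 3 red-cell miRNAs were called as lower in that comparison, with sums of 902.6 to 4668 CPM in gradual reoxygenation 12 h and 7452 to 14456 CPM in normoxia 12 h. The 3 acinar and 5 epithelial miRNAs were all higher in gradual reoxygenation 12 h, with none called, and of the 3 hepatocyte miRNAs 1 was higher and 2 lower. The part of these cell-type miRNAs in the result was not tested. Rapid reoxygenation 12 h, at 21.1 and 61.0 CPM of miR-142-5p, lay above the 17.0, 14.5 and 19.0 CPM of hypoxia 12 h in its 2 analysed libraries, with 1.06 ± 0.50 (limma adjusted p = 0.883). miR-142-3p had 7.27 and 28.3 CPM in rapid reoxygenation 12 h, against 6.22, 3.37 and 5.18 CPM in hypoxia 12 h, with 1.43 ± 0.56 (limma adjusted p = 0.883). These were the 2 of the 6 leading rows that did not overlap, beside 22.9% of all tested rows. Should the deposited means of 29.2 and 12.6 CPM be plain means, the further library lies below every hypoxia 12 h library in both. Of the 3 red-cell miRNAs, 1 was higher and 2 lower in rapid reoxygenation 12 h. All 3 acinar and 5 epithelial miRNAs were lower there, and of the 3 hepatocyte miRNAs 1 was higher and 2 lower, with none called. The part of these cell-type miRNAs in the values of miR-142 was not tested. In rapid reoxygenation 12 h against rapid reoxygenation 3 h only miR-155-5p of the 6 did not overlap (0.60 ± 0.53), beside 16.6%. Should its deposited mean of 4.37 CPM in rapid reoxygenation 12 h be a plain mean, the further library lies below every rapid reoxygenation 3 h library. None of the 6 had groups that did not overlap in gradual reoxygenation 12 h against hypoxia 12 h (23.8% of all tested rows) or in rapid reoxygenation 12 h against normoxia 12 h (17.8%).

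For miR-142-5p the order of group means was gradual reoxygenation 3 h, rapid reoxygenation 12 h, normoxia 0 h, normoxia 12 h, hypoxia 0 h, rapid reoxygenation 3 h, hypoxia 12 h and gradual reoxygenation 12 h, and each neighbouring pair in that order overlapped. For miR-142-3p, rapid reoxygenation 12 h (17.8 ± 14.9 CPM, SD, n = 2) and normoxia 0 h (16.3 ± 16.8 CPM, SD, n = 2) came first, each carried by 1 library of 28.3 or 28.2 CPM, and all neighbouring pairs overlapped. With the further library, the authors' deposited table gives 29.2 CPM of miR-142-5p for rapid reoxygenation 12 h and 32.4 CPM for normoxia 0 h, with 12.6 CPM of miR-142-3p and 4.37 CPM of miR-155-5p for rapid reoxygenation 12 h and 16.1 and 14.3 CPM for normoxia 0 h.

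miR-223-3p, the myeloid member, was highest in gradual reoxygenation 3 h. It had 9.995, 16.0 and 10.7 CPM there, against 4.85, 7.58 and 7.24 CPM in rapid reoxygenation 3 h. The groups did not overlap, and the log2 difference of 0.80 ± 0.32 did not pass (limma adjusted p = 0.397). Over the other groups miR-223-3p stayed between 3.91 and 14.3 CPM, and every neighbouring pair in its order of group means overlapped. Its 5p arm stood between 0.712 and 3.97 CPM in all libraries, with the highest group mean also in gradual reoxygenation 3 h, at 2.92 ± 1.01 CPM (SD, n = 3), and with overlap between all neighbours.

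miR-150 had its lowest group mean in gradual reoxygenation 3 h. It had 32.0, 29.7 and 24.6 CPM in gradual reoxygenation 3 h, against 45.8, 47.4 and 32.5 CPM in rapid reoxygenation 3 h and 38.4, 54.3 and 43.9 CPM in hypoxia 0 h. No library of gradual reoxygenation 3 h reached either of the other groups, as was the case for the epithelial and acinar sums against rapid reoxygenation 3 h given above. The log2 differences of −0.52 ± 0.30 against rapid reoxygenation 3 h (limma adjusted p = 0.653) and −0.64 ± 0.30 against hypoxia 0 h (limma adjusted p = 0.327) did not pass. The other 7 group means of miR-150 lay between 38.7 and 48.5 CPM over the analysed libraries, and neighbouring groups overlapped throughout. With the further library, the authors' deposited mean of miR-150 was 30.2 CPM for rapid reoxygenation 12 h and 47.5 CPM for normoxia 0 h. That of rapid reoxygenation 12 h stood close to the 28.7 CPM of gradual reoxygenation 3 h. If it is a plain mean, this rests on the further library, which then lies below all 22 analysed libraries for miR-150. The same holds for each of the other leading rows.

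Across the 16 comparisons of groups or of differences, the 6 leading rows gave 96 tests, of which 1 passed in limma, 0 in edgeR and 3 in DESeq2, and 14 had an unadjusted limma p under 0.05. Over all tested rows and the same comparisons, 0.664% of tests passed in limma, 1.16% in edgeR and 3.78% in DESeq2, and 8.85% had an unadjusted limma p under 0.05. Of the 84 tests between groups, 25 had groups that did not overlap, beside 21.1% over all tested rows. A limma test of any difference among the 8 groups called 1.5% of all tested rows and none of the 6 leading rows. The adjusted p was 0.246 for miR-142-5p, 0.259 for miR-155-5p, 0.460 for miR-223-3p, 0.535 for miR-142-3p, 0.703 for miR-150 and 0.845 for miR-223-5p, and edgeR called 1 of the 6, miR-155-5p (adjusted p = 0.0323), beside 14.3% of all tested rows. Without library 3 of normoxia 0 h, 3 of the 6 passed in limma: miR-142-5p (pbv-miR-142-5p, adjusted p = 0.00839), miR-142-3p (aca-miR-142-3p, 0.0366) and miR-155-5p (gga-miR-155, 0.00208), while 153 of the 602 rows did.

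The ratio of the arms of miR-142 varied between libraries. The CPM of the 5p row over that of the 3p row was 1.54, 2.30 and 2.65 in gradual reoxygenation 12 h, against 4.92, 4.12 and 4.404 in gradual reoxygenation 3 h, and over all libraries it ran from 1.54 to 5.23 with a median of 2.99. The groups of gradual reoxygenation lay apart, and the mean log2 of (5p CPM + 1) over (3p CPM + 1) was 0.96 ± 0.39 at 12 h and 2.05 ± 0.13 at 3 h (SD, n = 3 each). The other means were 1.25 ± 0.24 in rapid reoxygenation 12 h (n = 2), 1.43 ± 0.16 in rapid reoxygenation 3 h, 1.61 ± 0.26 in hypoxia 12 h, 1.32 ± 0.18 in hypoxia 0 h, 1.88 ± 0.34 in normoxia 12 h and 1.23 ± 0.32 in normoxia 0 h (n = 2). A permutation test of the F statistic over the 8 groups gave F = 5.37 with p = 0.00281 (100000 resamples). Among the 61 family names with both arms tested, miR-142 had the highest F, but its p adjusted over these 61 was 0.10, and 0% of them passed after adjustment (18% at an unadjusted p under 0.05). The names are not all separate hairpins: miR-142a, counted among them, paired other miR-142 rows (cfa-miR-142 over cgr-miR-142-3p, F = 4.80, permutation p = 0.00787). miR-199 came next to miR-142, with F = 5.06 and a permutation p of 0.00328. The share of gga-miR-142-5p in pbv-miR-142-5p also varied by library, lying at 60.7 and 70.6% in rapid reoxygenation 12 h and at 38.5 to 47.1% in normoxia 12 h. Within gradual reoxygenation 12 h alone it ran from 38.8 to 67.2%, so libraries of 1 group differed nearly as much.

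**Figure D3:**
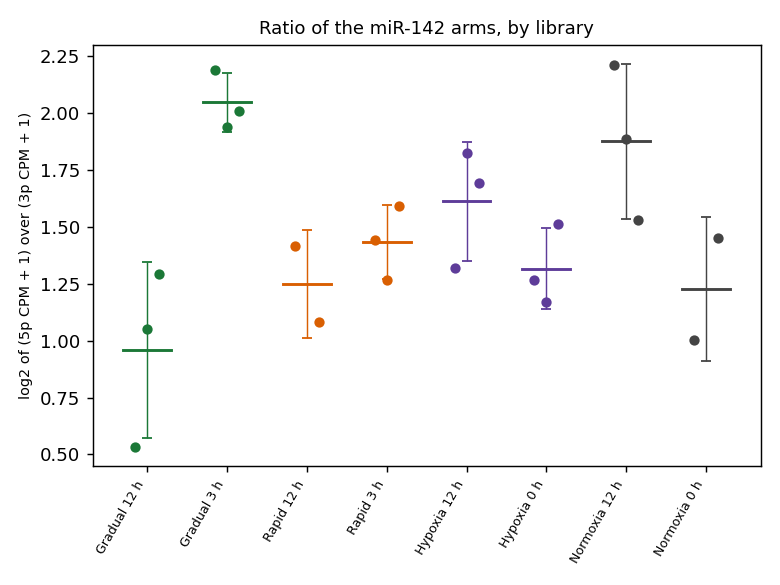
Log2 of the miR-142 arm ratio, (5p CPM + 1) over (3p CPM + 1), in every library (points) with group mean (thick line) and SD (bars). Gradual reoxygenation 12 h has the lowest mean, 0.96, and gradual reoxygenation 3 h the highest, 2.05.

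The arm ratio of miR-142 was set beside the red-cell miRNAs. Their sum was mostly miR-451, whose most abundant row had a mean of 5299 CPM beside a mean sum of 5604 CPM over all libraries. Over 22 libraries, Pearson's r between the log2 arm ratio and the log2 summed level of miR-144, miR-451 and miR-2188 was 0.814, with Spearman's rho of 0.709. The r of the deviations from group means was 0.653, and without the 2 libraries farthest from the median of the sum r was 0.734. With the red-cell sum, r was 0.394 for miR-142-5p, −0.07 for miR-142-3p, 0.533 for miR-223-3p, −0.30 for miR-155-5p and −0.29 for miR-150. For deviations from group means these values were 0.12, −0.16, −0.02, −0.46 and −0.07, in the same order. With depth, the arm ratio had an r of 0.383 and a rho of 0.258. miR-155-5p had an r of −0.289 and a rho of −0.54 with depth, and the rho of the other leading rows lay between −0.169 (miR-150) and 0.031 (miR-142-3p). The points share the libraries and their scaling, and these values are descriptions. No r was taken between the arm ratio and the other cell-type sums. Gradual reoxygenation 3 h and normoxia 12 h, with the highest mean ratios, also had the lowest mean acinar sums, 812.6 and 1428 CPM. Rapid reoxygenation 12 h came next with 1737 CPM, at a mean log2 ratio of only 1.25. Whether the relation is particular to red-cell miRNAs was not tested.

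**Figure D4:**
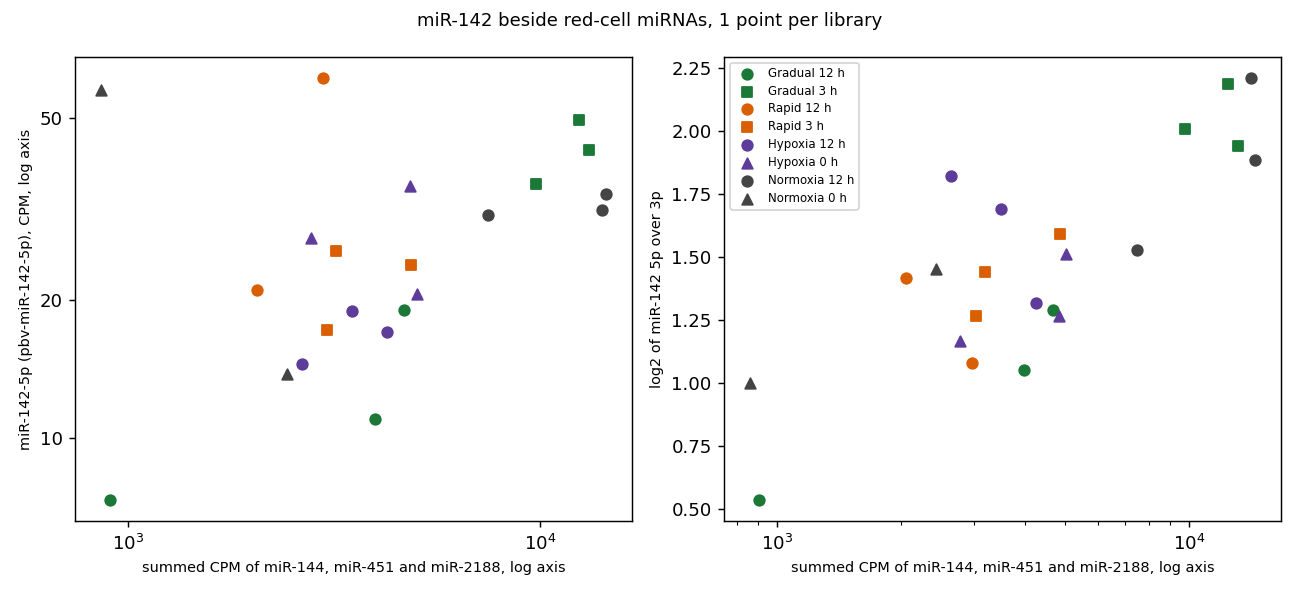
Left, miR-142-5p (CPM, log axis), and right, log2 of the miR-142 arm ratio, against the summed CPM of miR-144, miR-451 and miR-2188 (log axis), 1 point per library with colour and shape for the group. The arm ratio is higher where the red-cell sum is higher (r = 0.814), while r is 0.394 for miR-142-5p, with 1 library each of rapid reoxygenation 12 h and normoxia 0 h high at a low sum. Sums of other cell types are not drawn.

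The members' levels were then set against each other. Over 22 libraries, the arms of miR-142 had a Pearson's r of 0.833 (rho = 0.879, and r = 0.915 for deviations from group means), and the arms of miR-223 had an r of 0.679 (rho = 0.703). miR-155-5p had an r of 0.621 with miR-142-3p, which was 0.38 without the 2 libraries farthest from the median, and 0.50 with miR-142-5p. miR-223-3p had an r of 0.305 with miR-142-5p and 0.05 with miR-155-5p, and miR-150 had an r of −0.13 with miR-142-5p and −0.17 with miR-223-3p. For deviations from group means these values were 0.085, 0.389, 0.022 and 0.245, in the same order.

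Likeness to other miRNAs was measured for the leading rows with a mean of at least 10 CPM, miR-142-5p and miR-150, as Pearson's r of log2(CPM + 1) over the 22 libraries. The rows most like miR-142-5p were bta-miR-1388-5p (r = 0.715), ssa-miR-7132b-3p (0.701), novel_431 (0.611, with a mean of 0.451 CPM), abu-miR-7133-5p (0.584, with a mean of 0.448 CPM) and dre-miR-27c-3p (0.573). Those most like miR-150 were dre-miR-125a (r = 0.712), ssa-miR-23b-3p (0.704), oha-let-7a-3-3p (0.694), rno-miR-3570 (0.655) and dre-miR-10c-5p (0.628). For deviations from group means r was 0.827, 0.743, 0.359, 0.776 and 0.672 for the rows listed with miR-142-5p, in that order. For those listed with miR-150 it was 0.715, 0.749, 0.734, 0.778 and 0.543. The rows were picked for the highest r among many, and these values are descriptions.

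Other miRNAs known from immune cells were counted from a list of 12, of which 9 had a tested row: miR-146a, miR-146b, miR-181a, miR-181b, miR-181c, miR-21, miR-132, miR-722 and miR-29b. None was called by limma in any of the comparisons or in the test over all groups, and in each of these 0 to 3 of the 9 had an unadjusted p under 0.05, beside 2.16 to 21.9% of all tested rows (9.8% where 3 of the 9 did, gradual reoxygenation 12 h against hypoxia 12 h). In gradual reoxygenation 12 h against gradual reoxygenation 3 h, 3 of the 9 were higher and 6 lower, none of them called, with a median log2 difference of −0.25 beside −0.12 for all tested rows. The listed miRNA closest to the threshold there was miR-181c, of a family that tunes T cell receptor signalling in mice, with −0.69 ± 0.20 (limma adjusted p = 0.0642). Its level was low, 0.343 to 2.10 CPM with a mean of 1.26 CPM, near the filter of 1 CPM. The far more abundant miR-181a (mean 1813 CPM) and miR-181b (436.5 CPM) had −0.25 and −0.52 there (limma adjusted p = 0.54 and 0.28). miR-181c was the only one of the 9 that other tools called: DESeq2 called it in that comparison (adjusted p = 0.0324, beside 8.8% of all tested rows) and in the difference between rates (0.00175, beside 5.15%), and edgeR in that difference (0.0465, beside 0.332%) and over all groups (0.0433, beside 14.3%). miR-146a, which restrains innate immune signalling in mammals and which ranged from 9892 to 68550 CPM, had 0.86 ± 0.49 in the same comparison (limma adjusted p = 0.397).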

How the data were processed

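Values came from the miRNA table of the golden pompano liver libraries, as the authors deposited it. Bowtie is listed, without a version, per the submitters' processing notes; for the reference, the annotation and the counter, nothing is given in the sources used. The deposited values are called TPM in the table's name but are CPM made by the authors: each library has one fixed sum, and 100% of values are whole multiples of 1 read within 0.01 read, so no length scaling was made. Group means in the table are the authors' CPM means. Of 2108 rows, 708 repeats of another row were removed. Rows at or above 1 CPM in at least 2 libraries (602) were tested on log2(CPM + 1) with limma 3.58.1 (R 4.3.3), a mean-variance trend and 8 groups in 1 fit, Benjamini-Hochberg adjustment within each comparison and a threshold of 0.05. The recovered reads were tested with DESeq2 1.42.0 and with the quasi-likelihood test of edgeR 4.0.16, and the limma step was tested on simulated data. The arm ratio was tested by permuting libraries over the groups in Python 3.11.15 with seed 101 (Benjamini-Hochberg adjustment with scipy 1.17.1), and figures were drawn with matplotlib 3.10.9.

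Named rows are all members, with per-library values for the most abundant row of each miRNA and arm. Likeness took the 5 rows of highest r outside the members, 1 per family name. The members, lists, tests and alternatives were chosen with earlier results of these data known. Library numbers are those of the table and do not pair libraries: over 70 pairs of the same number in different groups, the median correlation of deviations was −0.06. No library pair within a group (20 pairs) agreed within counting noise, the lowest chi-square per degree of freedom being 272.8. No miRNA sequence was used here. miR-181d, miR-342 and miR-212 had no row that was tested.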

Additional observations from a re-analysis of the deposited data

Results flagged for a closer look

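miR-142-5p (pbv-miR-142-5p) lay on opposite sides of the comparison between the 2 rates of reoxygenation at 3 h and 12 h. Every library of gradual reoxygenation lay above every library of rapid reoxygenation at 3 h and below both analysed ones at 12 h, where the mean was 41.0 CPM over these 2 and 29.2 CPM in the authors' deposited table, which takes in a further library not analysed here. The difference between the 12 h against 3 h change under gradual reoxygenation and that under rapid reoxygenation was −2.46 ± 0.67 on the log2 scale. Tested directly it passed in DESeq2 (adjusted p = 0.0238) and not in limma (0.133) or edgeR (0.113), so the difference is not shown by the main test. Both its size and the separation of the groups at 12 h rest on the 2 analysed libraries of rapid reoxygenation 12 h (21.1 and 61.0 CPM). The deposited means of the groups with 3 analysed libraries are plain means of these. If the deposited mean of rapid reoxygenation 12 h is one too, its further library lies below every library of gradual reoxygenation 12 h. The separation at 12 h then does not hold for it. The deposited mean still lies above the 12.5 CPM mean of gradual reoxygenation 12 h, but this rests largely on the 1 library of 61.0 CPM. With the further library so placed, rapid reoxygenation 12 h encloses every library of gradual reoxygenation 12 h.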

How the results depend on the processing

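The call of miR-142-5p (pbv-miR-142-5p) in gradual reoxygenation 12 h against 3 h kept its sign in every alternative, with a log2 difference of −2.11 to −1.25. The count of leading rows called there was 0 under TMM factors, quantile normalization, a pseudocount of 10, no filter on low values, identical rows kept, edgeR, the fit of only these groups and the replicate block. With the block the limma adjusted p of miR-142-5p was 0.0774, and the labels do not say that the numbers pair libraries. The count was 1 with a pseudocount of 0.5, a filter of 10 CPM and DESeq2. Over all tested rows the 11 calls there became 4 under TMM factors, 1 under quantile normalization, 4 with a pseudocount of 10, 3 with no filter, 0 in edgeR, 53 in DESeq2, 5 with the block, 2 in the fit of these groups, and 0 to 29 with 1 library left out. In the test over all groups 9 of the tested rows passed in limma and 86 in edgeR. DESeq2 called 1 leading row in normoxia 12 h against 0 h (miR-155-5p) and 1 in the difference between rates (miR-142-5p), and edgeR 1 in the test over all groups (miR-155-5p). Leaving out 1 library at a time gave 0 to 3 leading rows in the test over all groups, 0 to 2 in normoxia 12 h against 0 h, and 0 to 1 in hypoxia 0 h against normoxia 0 h, in gradual reoxygenation 12 h against 3 h and in the difference between rates. The uncalled log2 difference of miR-142-5p in normoxia 12 h against 0 h was −0.34 in edgeR and −0.31 in DESeq2, against 0.17 in limma. For miR-150 in hypoxia 12 h against normoxia 12 h, −0.01 in limma, it was 0.042 under TMM factors, 0.055 under quantile normalization and 0.024 in edgeR. With 1 library left out, the uncalled differences of miR-142-5p that changed sign ran from −1.05 to 0.93 in hypoxia 0 h against normoxia 0 h, −0.82 to 1.16 in normoxia 12 h against 0 h, −0.58 to 0.91 in rapid reoxygenation 12 h against normoxia 12 h, −0.057 to 1.43 in rapid reoxygenation 12 h against 3 h, and −1.83 to 0.15 in the difference of the hypoxia effect. Likewise, miR-155-5p (gga-miR-155) ran from −1.51 to 0.90 in hypoxia 0 h against normoxia 0 h and from −2.33 to 0.079 in normoxia 12 h against 0 h, miR-142-3p (aca-miR-142-3p) from −1.70 to 0.73 in normoxia 12 h against 0 h as well, and in hypoxia 12 h against normoxia 12 h miR-150 (mze-miR-150) ran from −0.29 to 0.22 and miR-223-3p from −0.65 to 0.014. The cause of these changes was not tested. The F of the arm ratio was 4.19 to 6.53 with 1 library left out, 10.9 with a pseudocount of 10, and 4.29 without a pseudocount, which was chosen after seeing the data, as was the adjustment over the 61 family names. The lowest depth behind a leading row was 19 reads, in 1 library of miR-223-5p (median 58 reads).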
